A study of Caenorhabditis elegans with 2 samples.

Results

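The regions described here are candidate NHR-10 binding regions on the X chromosome of Caenorhabditis elegans that lie far from the promoters of protein-coding genes. A region was taken from the pooled list on the ce11 build when it was on X and its summit, the base of highest signal, was over 1000 bp from every protein-coding transcription start site (TSS) annotated by Ensembl on WBcel235. This gave 3545 regions, out of 5832 on X and 30000 in the whole list. The authors label the pooled list as peaks and background, so a region in it is not by itself a called binding site. Binding had been mapped in whole L2 larvae by ChIP-seq, which sequences the DNA that comes down with a protein, in 1 group of 2 biological replicates. Every animal was of strain OP239 (unc-119(ed3) III; wgIs239), a transgenic line in which NHR-10 carries a C-terminal GFP-FLAG tag. Larvae of both sexes were pooled, their age is given as unknown, and the chromatin was sonicated. The line is the only genotype, each library mixes all tissues of the larva, and the control library was not analysed here. The files hold regions and no read counts, so the depth of the libraries is unknown.

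NHR-10, a nuclear hormone receptor, is known for switching on genes of propionate breakdown. The X chromosome of this animal is also the target of the dosage compensation complex, which lowers the output of both X chromosomes in hermaphrodites. That complex is recruited at scattered elements of X that carry a motif enriched on X (MEX), and the letters CGCAGGGA fall within its consensus. The complex is kept off in males by xol-1, an X-linked gene that acts as the master switch of sex determination.

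The sequences below are the stretches around CGCAGGGA in the 12 regions of highest signal that hold these 8 letters within the 200 bp centred on the summit. They are shown because 12 of the 20 highest of these X regions hold the letters, against 0.203% of all 30000 regions of any signal. Among the other regions of the list, 1 of those at ranks 1 to 20 (14.3%) and 0 of those at ranks 21 to 100 hold them. Each stretch is 40 bases of the RefSeq genome of the same build, WBcel235, is written on the strand on which the core reads 5′ to 3′, is named by the gene with the nearest TSS, and has the core in capitals.
W02H3.3 (chrX:11094209-11094248, minus strand): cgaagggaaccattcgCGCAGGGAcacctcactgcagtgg
F20B6.9 (chrX:4209249-4209288, minus strand): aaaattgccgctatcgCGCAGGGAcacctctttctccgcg
F55G7.5 (chrX:11937526-11937565, plus strand): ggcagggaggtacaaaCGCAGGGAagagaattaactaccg
xol-1 (chrX:8036384-8036423, minus strand): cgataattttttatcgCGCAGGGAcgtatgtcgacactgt
cest-16 (chrX:6296561-6296600, plus strand): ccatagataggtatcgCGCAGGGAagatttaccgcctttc
T27A8.7 (chrX:16056516-16056555, minus strand): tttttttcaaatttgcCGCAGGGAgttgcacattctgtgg
gtr-1 (chrX:806735-806774, plus strand): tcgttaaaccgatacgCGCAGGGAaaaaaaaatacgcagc
Y41G9A.17 (chrX:2997106-2997145, minus strand): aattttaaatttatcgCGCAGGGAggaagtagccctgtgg
C41A3.2 (chrX:5429575-5429614, plus strand): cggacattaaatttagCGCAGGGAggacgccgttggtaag
F22H10.2 (chrX:16682155-16682194, minus strand): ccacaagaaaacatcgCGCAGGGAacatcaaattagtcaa
T24D8.6 (chrX:2364882-2364921, minus strand): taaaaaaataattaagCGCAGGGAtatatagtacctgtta
col-185 (chrX:13514543-13514582, plus strand): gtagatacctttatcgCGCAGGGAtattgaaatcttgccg

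The bases just before the core were alike in most of the 12 stretches. The base next to the core on its 5′ side was G in 10 of 12, the base before that was C in 8 of 12 and the next was T in 9 of 12. All 3 letters stood together in 7 of the 12 stretches, those of W02H3.3, F20B6.9, xol-1, cest-16, Y41G9A.17, F22H10.2 and col-185. On the 3′ side the commonest base at each of the first 6 positions was in at most 6 of the 12.

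The whole 200 bp windows of the region of highest signal, at W02H3.3, and of the highest region without the core, at ZK899.6, show the range among the highest regions. The window at W02H3.3 held the core in 2 places, both on the minus strand, so that the capitals show its reverse complement. The window at ZK899.6 held no exact match but did hold 8 letters with 1 mismatch to the core.
W02H3.3 (chrX:11094124-11094323, plus strand): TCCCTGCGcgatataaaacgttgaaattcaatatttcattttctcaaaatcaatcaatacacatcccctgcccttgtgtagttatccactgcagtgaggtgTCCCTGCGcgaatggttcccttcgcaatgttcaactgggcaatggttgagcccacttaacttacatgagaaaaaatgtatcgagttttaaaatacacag
ZK899.6 (chrX:9465740-9465939, plus strand): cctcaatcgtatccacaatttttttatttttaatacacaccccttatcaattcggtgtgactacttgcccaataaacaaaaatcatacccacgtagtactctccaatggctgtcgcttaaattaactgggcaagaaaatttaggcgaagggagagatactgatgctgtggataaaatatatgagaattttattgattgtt

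Signal, the authors' own value for each region, was low for most of the 3545 regions and very high for 13. The median was 8.33, with quartiles of 7.03 and 10.5, and the range ran from 6.00 to 218. The 2287 X regions within 1000 bp of a TSS had a median of 8.62, the 12480 autosomal regions far from a TSS 8.16, and the whole list 8.38. The centre of the distribution thus lay close to that of the other groups, and the difference was not tested because regions of a list are not replicates. The upper end was another matter. A signal over 100 was reached by 13 of the far X regions (0.367%), 3 of the X regions near a TSS (0.131%) and 1 far autosomal region. Autosomal regions near a TSS added 11 (0.0941%), and the whole list held 28 (0.0933%). Between the thirteenth region, at F22H10.2 with 128, and the next, at T24D8.6 with 86.2, there was a step with no far X region in it.

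**Figure D1:**
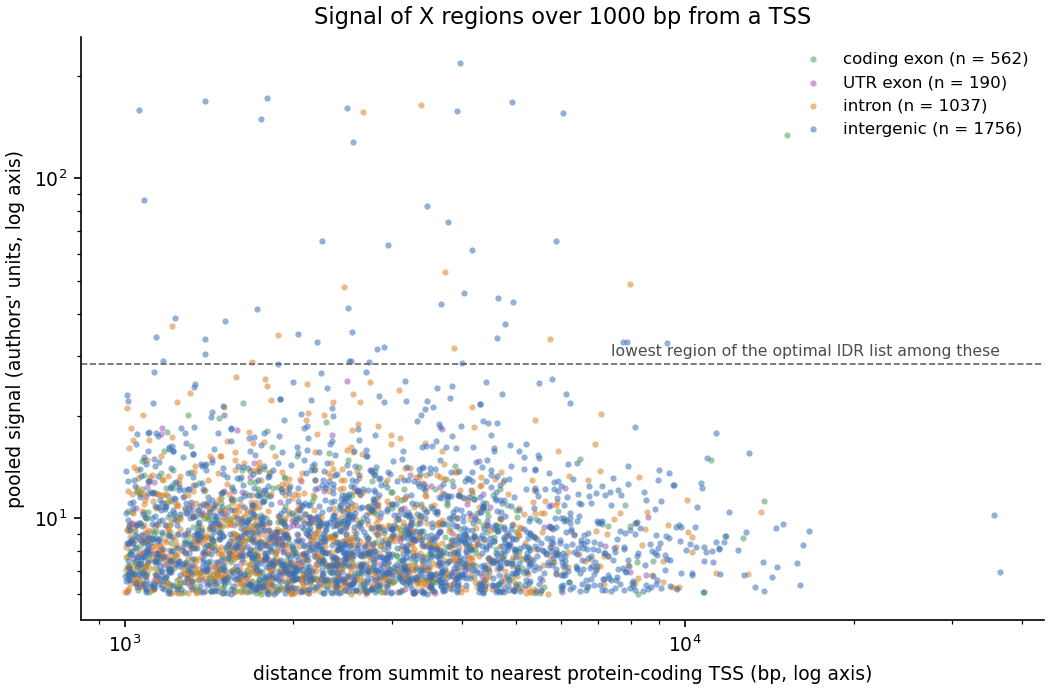
Pooled signal of each of the 3545 regions (vertical axis, authors' units) against the distance of its summit from the nearest protein-coding TSS (horizontal axis, bp), both on log axes and coloured by the annotation class at the summit. The 13 regions from 128 to 218 stand above a gap, at distances from 1061 to 15187 bp, and 3.24% of the regions lie over 20.

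Rank in the pooled list gives the same picture. Of the 20 regions of highest signal in the list, 13 were far X regions (65%, exact 95% interval 40.8 to 84.6). At ranks 21 to 100 their share was 7 of 80 (8.75%), and at ranks 101 to 491 it was 35 of 391 (8.95%). From rank 492 to the end of the list it stayed between 10.2% and 12.45% in each of 5 rank ranges. The share was thus above 12.45% in the first rank range alone, a description of this list without a test.

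The region of highest signal lay at 11094224, in intergenic sequence 3962 bp from the TSS of W02H3.3. Its signal was 218 in the pooled list, 46.2 in replicate 1, where it ranked 3, and 176 in replicate 2, where it ranked 1. The region 4910 bp upstream of xol-1 had a pooled signal of 168, with 53.1 and rank 1 in replicate 1 and 126 and rank 9 in replicate 2. Both stood among the 10 highest regions of each replicate, whose lists run to 22993 and 30000 regions. At F20B6.9 the pooled signal was 172, with 42.1 in replicate 1 and 135 in replicate 2. At F55G7.5 it was 169, with 43.9 and 124. Like the first pair, these 2 regions were intergenic and ranked no lower than 10 in either replicate.

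The next regions in order of signal included 3 inside genes. The region nearest cest-16, which encodes a carboxylesterase family protein, lay in an intron of mom-1, a gene for the Porcupine homologue needed to secrete Wnt ligands. Its pooled signal was 164, with 44.7 in replicate 1 and 129 in replicate 2. A region in an intron of Y41G9A.17 had 157, with 25.4 in replicate 1 (rank 26) and 133 in replicate 2 (rank 6). The region at 5429537 lay in a coding exon of pks-1, which encodes a polyketide synthase, 15187 bp from the nearest TSS, that of C41A3.2. It had 135 in the pooled list, 43.0 in replicate 1 and 97.0 in replicate 2, and was the only far X region in coding sequence that reached a signal of 100.

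Among the other intergenic regions over 100, ZK899.6 had 161 (35.3 and 130 in replicates 1 and 2) and T27A8.7 had 159 (48.2 and 110). K02D3.1 had 155 (34.3 and 120), F19H6.5 had 150 (44.7 and 118) and F22H10.2 had 128 (37.2 and 92.0). At gtr-1 the pooled signal was 158, with 16.7 and rank 72 in replicate 1 against 138 and rank 3 in replicate 2. The region at gtr-1 was thus the only one of the 13 outside the 26 highest of replicate 1, and all 13 were within the 22 highest of replicate 2.

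Below the step, the other 7 of the 20 highest were all intergenic, with pooled signals from 61.7 to 86.2. They were nearest T24D8.6 (86.2), the collagen gene col-185 (83.2), ZC53.1 (74.2), F56C3.1 (65.5), C30E1.4 (65.5), sma-9 (63.7) and F43E12.1 (61.7). sma-9 encodes the Schnurri homologue of the BMP-like body size pathway. Its region had 60.3 and rank 60 in replicate 2 but 4.80 and rank 3801 in replicate 1, and the region at ZC53.1 had 64.2 (rank 47) and 9.31 (rank 398). The other 5 ranked 41 to 115 in replicate 1 and 31 to 130 in replicate 2. All 20 regions had a summit within 100 bp in both replicates, with signals of 4.80 to 53.1 in replicate 1 and 38.4 to 176 in replicate 2.

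The highest regions were also narrower than the rest. Of the 30000 regions, 18 were shorter than the usual 390 bp, and 17 of these were among the 20 highest. Far X regions made up 11 of the 18, with widths from 98 bp at ZK899.6 to 247 bp at W02H3.3. The other 9 of the 20 highest far X regions had the usual width.

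The authors derived the optimal list from the pooled and replicate lists by IDR, the irreproducible discovery rate. IDR measures how well the ranks of regions repeat between lists. The optimal list held 55 of the 3545 far X regions with the same start and end. This is 1.55% (1.17 to 2.01), against 1.64% of the whole pooled list, so the share was near the background. It was 43 of 2287 (1.88%) for X regions near a TSS and 97 of 12480 (0.777%) for far autosomal regions. The optimal list holds exactly the 491 pooled regions of highest signal, so membership is itself a threshold on signal. It does not mean a high rank in both replicates, as 1 of the 55 matched rank 22879 in replicate 1. Counting any overlap of 1 bp, 71 of the 3545 touched an optimal region, against 2.03% of the pooled list. The 16 added regions all lay against one of the 55, with signals from 6.02 to 23.3 and a median of 11.1.

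The 55 optimal regions had signals from 28.5 to 218, with a median of 41.7. The lowest were at kin-20 (28.8), which encodes a casein kinase 1 homologue, lgc-21 (28.7) and ftt-2 (28.5), which encodes a 14-3-3 protein. Just outside the list were the regions at nhr-17 (27.0), nfki-1 (26.9) and F52G3.1 (26.8). Signal therefore ran on across the list's edge with no step of the kind seen between 86.2 and 128.

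By annotation, far X regions were mostly intergenic or intronic. The summit lay in intergenic sequence in 1756 regions (49.5%), in an intron in 1037 (29.3%), in a coding exon in 562 (15.9%) and in a UTR exon in 190 (5.36%). Of the 11.5 Mb of X over 1000 bp from a TSS, which is 65.1% of the chromosome, 48.6% was intergenic, 28.6% intron, 18.8% coding and 4.07% UTR. Per Mb of such sequence there were 313 regions in intergenic sequence, 314 in introns, 259 in coding exons and 404 in UTR exons. The shares in intergenic sequence and introns were thus within 1 percentage point of the sequence. Coding exons held a smaller share of regions (exact interval 14.7 to 17.1) and UTR exons a larger one (4.64 to 6.15) than of the sequence. Far autosomal regions went the same way, so this is no trait of X. Coding exons held 18.6% of them against 22.3% of far autosomal sequence, and UTR exons 5.58% against 3.44%. The intervals are for counting error alone, and since neighbouring regions can overlap, this comparison is not a test. Over all classes X held 307 regions per Mb of far sequence and the autosomes 263.

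Optimal far X regions were mostly intergenic, like the optimal list as a whole. Of the 55 optimal regions, 44 were intergenic (80%, 67 to 89.6), 10 intronic, 1 coding and 0 in a UTR exon. Over all 491 optimal regions 75.8% were intergenic, among those on X near a TSS 86%, and among the far autosomal ones 52.6%. The share in the optimal list was 2.51% of intergenic regions, 0.964% of intronic and 0.178% of coding ones. Median signal differed little by class, at 8.46 in intergenic sequence, 8.23 in introns, 8.13 in coding exons and 8.70 in UTR exons. The classes thus differed at the top of the list while their medians were alike. The intergenic share was 77.1% at ranks 101 to 491, 57.7% at ranks 1001 to 5000 and 46.5% at ranks 20001 to 30000, again without a test.

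**Figure D2:**
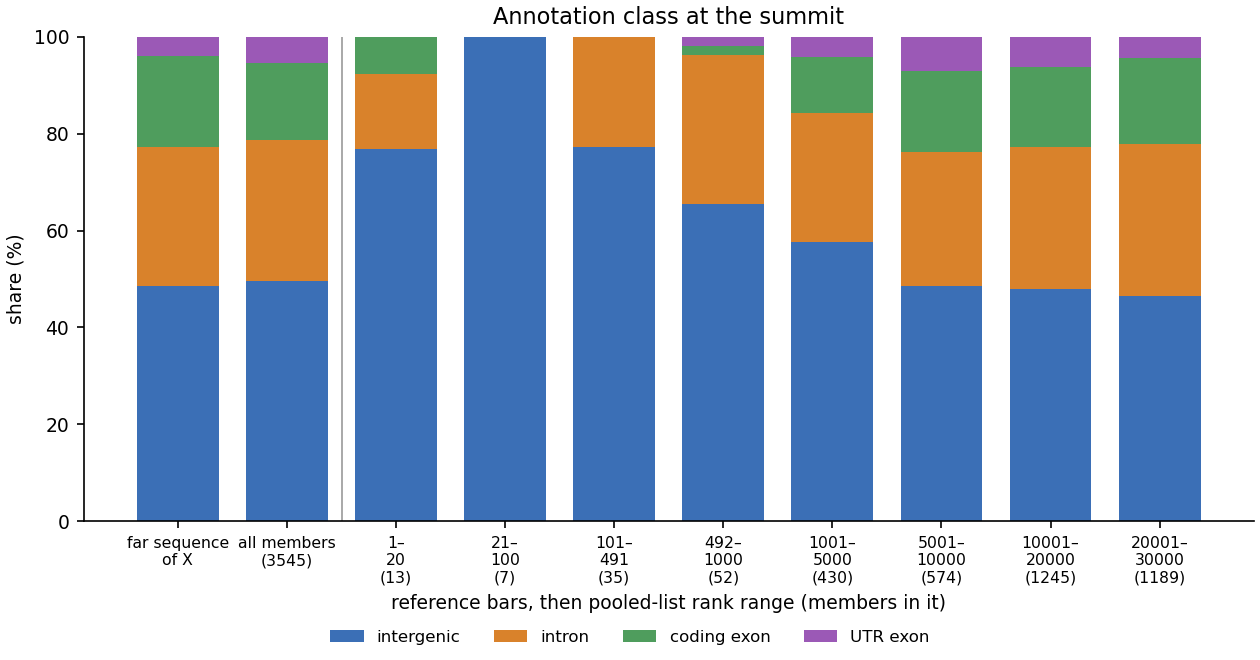
Share (percent, vertical axis) of each annotation class at the summit for the far sequence of X, for all 3545 regions, and for the regions in 8 ranges of pooled-list rank, with the number of regions in parentheses. Intergenic sequence makes up 48.6% of the far sequence and 49.5% of all regions, and 65.4% or more in each range down to rank 1000.

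Within introns, the highest regions after those of mom-1 and Y41G9A.17 were at F09A5.3 (53.0), abts-4 (49.0) and again Y41G9A.17 (47.8). abts-4 encodes an anion transporter, and the TSS nearest its region was that of mdl-1, a MAD-like transcription factor, 7969 bp away. In exons the highest after pks-1 was 25.4, in a UTR exon of lin-14, followed by coding exons of sur-7 (21.9), cbs-1 (20.1) and K03A11.5 (19.7). lin-14 encodes a heterochronic transcription factor that sets early larval cell fates, and cbs-1 a cystathionine beta-synthase. No exonic region but that of pks-1 was in the optimal list.

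Introns of 596 genes held at least 1 far X region, and 393 of these held 1 and 32 held 5 or more. The genes with most were F54G2.1 with 15, lin-14 with 14, nhr-27 with 12, unc-2 with 12 and daf-12 with 11. unc-2 encodes a voltage-gated calcium channel subunit, and daf-12 the steroid receptor that controls the choice between reproductive growth and the dauer stage. All are long genes, from 20.3 kb for lin-14 to 103 kb for nhr-27. Their regions were weak, with medians from 7.61 in F54G2.1 to 12.6 in lin-14 and a highest value of 22.0, and in each gene 0 were in the optimal list.

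Median signal was between 8.13 and 8.47 at every distance from the nearest TSS. The median distance was 2378 bp and the longest 36487 bp, near the left end of X, with Y73B3A.1 as the nearest gene. From 1001 to 2000 bp there were 1418 regions (40%) with a median signal of 8.47, from 2001 to 5000 bp 1673 with 8.32, and from 5001 to 10000 bp 400 with 8.13. The 54 regions farther out had 8.30. The optimal list held 16, 31, 7 and 1 of them in the same order. Of the far sequence 37.5% lay in the first of these distance ranges, 47.0% in the next and 2.37% in the last.

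At the edge of the distance rule, the nearest regions inside were at pfn-2 (1001 bp, signal 6.75), grk-1 (1001 bp, 6.09) and C15H9.4 (1004 bp, 7.71). The nearest outside were at rpl-25.1 (999 bp, 7.78), his-24 (999 bp, 18.5) and F56C3.8 (998 bp, 6.74). With distances of 500 and 2000 bp the rule would take 4501 and 2127 regions.

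Along X, the gaps between far regions ran from 199 to 73926 bp. Neighbouring summits were a median of 3013 bp apart, with quartiles of 1090 and 6535 bp and a mean of 4.99 kb. In 305 of 3544 gaps (8.61%) the summits were closer than 390 bp, so that the regions overlapped or touched, and merging these left 3240 loci. The longest gap was 73926 bp, between summits at 186236 near chkr-1 and 260162 near Y108F1.5. Of that gap 79.4% was far sequence, and the pooled list held 1 other X region in it.

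The 55 optimal regions were a median of 272 kb apart, and the 20 highest a median of 843 kb, from 186 to 2356 kb. The longest optimal gap was 1173 kb, from 3036026 near M02F4.2 to 4209281 near F20B6.9, and it held 409 weaker X regions. Optimal regions came within 2000 bp of each other in 4 of 54 gaps, at the closest 199 bp apart in the intron of Y41G9A.17. Counting regions within 2000 bp once gave 51 loci. Gaps this wide follow from taking few regions, so they do not show that the highest regions are isolated. The 16 weaker far X regions that touched optimal ones were close neighbours of some.

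**Figure D3:**
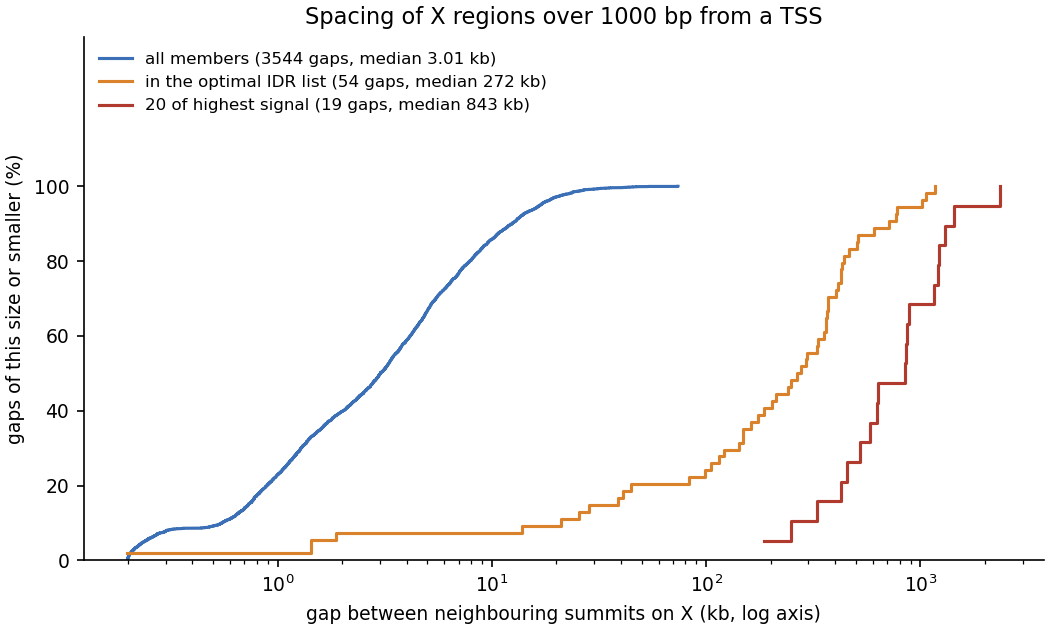
Cumulative share of gaps (percent, vertical axis) by the gap between neighbouring summits (kb, log axis) for all 3545 regions, the 55 in the optimal list and the 20 of highest signal. The curves sit apart, with medians of 3.01, 272 and 843 kb, as the number of regions taken falls.

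In the 17 full bins of 1 Mb there were 139 to 242 far regions, with a median of 207, and 1 to 7 optimal ones, with a median of 2. Per kb of far sequence the bins held 0.193 to 0.396 far regions, with a median of 0.319, so density varied along X. Median signal per bin ran from 7.90 to 8.73. Cut into 3 stretches of equal length, X held 1151, 1194 and 1200 far regions from left to right, 17, 16 and 22 optimal ones, and 7, 6 and 7 of the 20 highest.

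The densest stretches of 10 kb were not where the highest signals were. The first, from 6735573 to 6745572 between R03E9.2 and mdl-1, held 12 intergenic regions with signals from 7.98 to 25.2 and 0 in the optimal list. The next, from 6247172 to 6257171 near W05H9.4 and got-2.2, held 11 intergenic regions up to 33.1, with 2 in the optimal list. The last, from 11467411 to 11477410, held 11 regions in introns of lin-14, from 6.42 to 20.3, with 0 in the optimal list. Each region of these stretches was thus far below the 13 highest.

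In the replicate lists, far X regions were matched about as often as other regions. A replicate 1 summit lay within 100 bp in 947 of 3545 (26.7%), against 26.0% of the whole pooled list. For replicate 2 it was 2242 (63.2%), against 65.3%, and for both replicates 437 (12.3%), against 12.7%. In 793 (22.4%) there was no such summit in either, against 21.4% of the pooled list. Overlap of the regions themselves by at least 1 bp is a looser measure. It was found for 1555 (43.9%) in replicate 1 and 2670 (75.3%) in replicate 2, against 43.5% and 77.0% of the pooled list. Each of these shares was near the background, so none is a result about far X regions.

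The share matched was larger at higher ranks. The 20 highest regions were all matched in both replicates. Replicate 1 then matched 28 of 35 at ranks 101 to 491, 31 of 52 at ranks 492 to 1000, 190 of 430 at ranks 1001 to 5000 and 228 of 1189 at ranks 20001 to 30000. Replicate 2 matched 35, 48, 373 and 513 of them in the same order. The pooled list was made from both alignments, so these shares are a description of it and not a separate check.

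Replicate 2 held a match for every optimal region and replicate 1 for most. In replicate 2 all 55 were matched, at a median rank of 212 (1 to 2652) of 30000. In replicate 1 48 were matched (87.3%), at a median rank of 135.5 (1 to 22879) of 22993, and ranks from lists of different lengths are set side by side here without a comparison. Among the 491 highest regions of each replicate there were matches for 31 of the 55 in replicate 1 (56.4%), 45 in replicate 2 (81.8%) and 25 in both (45.5%). Over all 491 optimal regions, 81.3% were matched in replicate 1 and 98.8% in replicate 2. Among the 491 highest of each replicate their shares were 44.8% and 81.9%, and 36.3% for both. The share for replicate 2 was thus near that of the whole optimal list. For replicate 1 it was 56.4% (interval 42.3 to 69.7) against 44.8%. The 55 are part of the 491, so these are descriptions and not a test.

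The 7 optimal regions without a replicate 1 summit within 100 bp were at Y41G9A.17 (pooled signal 47.8), M02F4.2 (41.2), W05H9.4 (33.1), hsp-25 (31.4), W02H3.3 (29.1), hda-4 (28.9) and ftt-2 (28.5). Those at Y41G9A.17 and W02H3.3 are second, weaker regions beside the high ones already described. hsp-25 encodes a small heat shock protein and hda-4 a class II histone deacetylase. Their replicate 2 signals ran from 12.1 at hda-4 to 35.8 at Y41G9A.17. By overlap of at least 1 bp, 6 of these 7 had a region in replicate 1.

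Signals of the matched regions went together within the optimal list and weakly so outside it. On the log2 scale, Pearson's r was 0.74 across the 48 optimal regions matched in both replicates, and Spearman's rho was 0.61. Across the 389 matched regions outside the optimal list they were 0.18 and 0.11. All 437 together gave 0.69 and 0.33. These are descriptions across regions, which share the 2 libraries and were selected on the pooled signal, and no p is given.

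**Figure D4:**
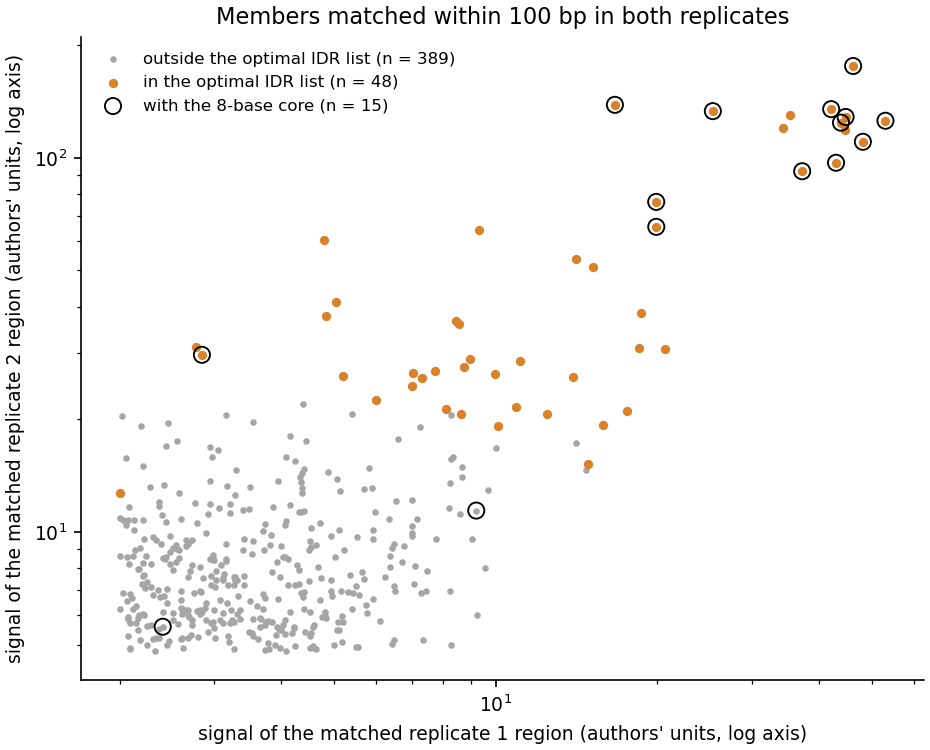
Signal of the matched replicate 2 region against that of the matched replicate 1 region (authors' units, log axes) for the 437 regions matched within 100 bp in both; circles mark the 15 that hold the core. The optimal regions (48, orange) climb to 53.1 and 176, and the other 389 (grey) form a cloud with r = 0.18; regions with the core are mostly at the upper right, with 13 of 15 in the optimal list.

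Each replicate's own list gave like numbers of far X regions. By the same rule there were 2749 of 22993 in replicate 1 and 3504 of 30000 in replicate 2. Among the 491 highest they were 58 and 52. Among the 20 highest they were 11 and 12, against 13 in the pooled list. The concentration of far X regions at the very top was thus present in each replicate's ranking.

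The core shown in the sequences above followed signal closely. It was in the 200 bp window of 21 far X regions (0.592%, 0.367 to 0.904), against 0.203% of the pooled list, where 61 windows held it. Of the 13 highest far X regions 10 held it, of the next 7 it was 2, of the 35 others in the optimal list 2, and of the 3490 outside it 7. In the optimal list as a whole it was thus in 14 of 55 (25.5%, 14.7 to 39), against 3.46% of all 491. Among the X regions within 1000 bp of a TSS it was in 5 of 2287, and among far autosomal regions in 20 of 12480 (0.160%). Of the 97 far autosomal regions in the optimal list 0 held it. Of the 43 optimal X regions near a TSS 1 did (2.33%), a region 700 bp from the TSS of nspc-17 with signal 159 at pooled rank 8. Of the 11 shortened far X regions 8 held it, and without these 11 the share over far X regions was 0.368%.

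**Figure D5:**
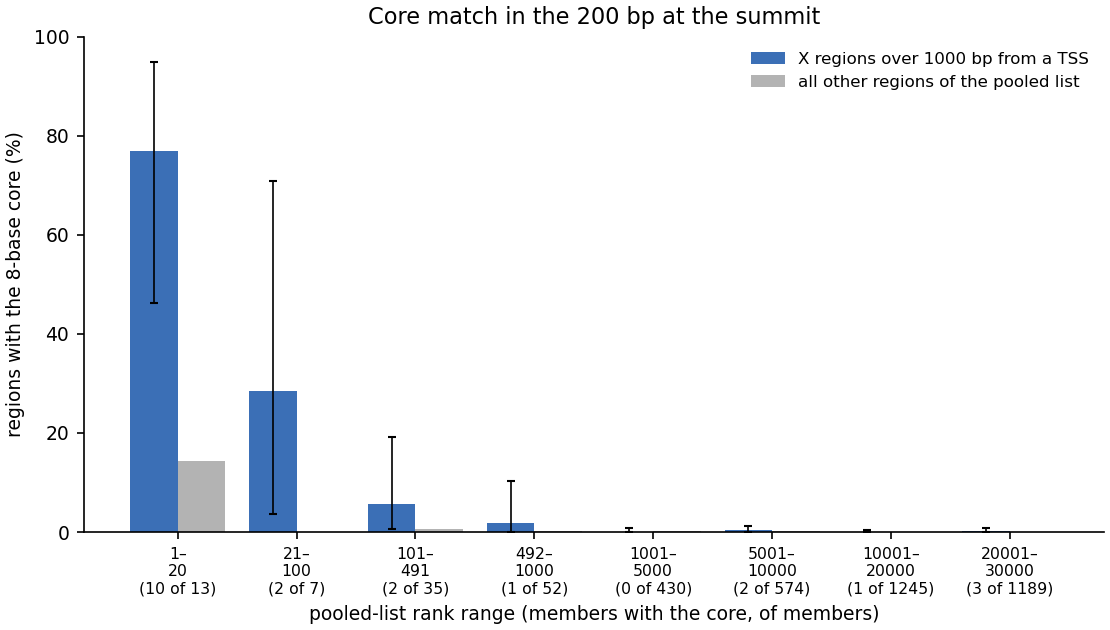
Share of regions (percent, vertical axis) with the 8-base core in 200 bp at the summit, in 8 ranges of pooled-list rank, for far X regions (blue, with exact 95% intervals) and all other regions of the list (grey). The share of far X regions is 76.9% at ranks 1 to 20, 28.6% at ranks 21 to 100 and 5.71% at ranks 101 to 491, and at most 1.92% after that.

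The distance of the core from the summit is at most 100 bp by the choice of window. It was 1 bp at xol-1, 3 bp at col-185, 4 bp at T24D8.6 and 5 bp at W02H3.3, and 86 bp at the farthest, F22H10.2. Over the 14 optimal regions with the core the median was 13 bp, with 5 of them over 50 bp, and over the 7 others it was 39 bp. The windows at W02H3.3 and xol-1 held the core in 2 places each. The optimal regions with the core below the 12 shown were the second region of Y41G9A.17 (47.8) and that of B0302.2 (31.8). The 7 outside the list were led by dpy-23 (21.8), and the others had 6.10 to 11.4.

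Many copies of the core in the far sequence of X lay outside the 200 bp windows of far X regions. A copy inside a region but beyond its window is not counted here. The letters occur 100 times on X, 65 of them over 1000 bp from a TSS. Of those 65, 22 lay in the window of a far X region (33.8%) and 15 in that of an optimal one. For scale, the windows are 3545 stretches of 200 bp, 55 of them optimal, in 11.5 Mb of far sequence. A copy of the letters was thus not enough by itself for a far X region. Whether copies lay in the windows more often than the sequence covered would give was not tested.

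A looser match adds a few regions. Of the 8 among the 20 highest without the core, those at ZK899.6, ZC53.1 and C30E1.4 held 8 letters with 1 mismatch to it, and K02D3.1, F19H6.5, F56C3.1, sma-9 and F43E12.1 did not. With 1 mismatch allowed, the count was 24 of the 55 optimal regions (43.6%) and 179 of all 3545 (5.05%), against 5.26% of the pooled list. Over all far X regions the looser letters were therefore as frequent as in the whole list. The looser match was not counted over all 491 optimal regions, so the 43.6% has no background of like signal. Windows of those 491 also had a higher median GC content (44%) than the pooled list (35%).

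For 5 other short sequences, searched on both strands in the same windows, most shares in the 55 optimal far X regions were near those of the whole optimal list. GAGAGA was in 20 of 55 (36.4%), against 39.7% of all 491 optimal regions. It was in a larger share of the far autosomal ones (60.8%) and of those on X near a TSS (58.1%). Over all 3545 regions GAGAGA was in 12.2%, against 13.8% of the pooled list. GCGCAG, whose last 5 letters are the first 5 of the core, was in 16 of 55 (29.1%), against 10.6% of all 491, and 13 of these 16 also held the core, so the count largely repeats that of the core. The 3 without it were at hlh-29, acl-4 and F15G9.5. CACGTG, the E-box, was in 7 of 55 (12.7%, 5.27 to 24.5), against 8.55% of all 491 and 13.4% of the far autosomal optimal regions.

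TGATAA, a form of the GATA factor site, was in 5 of 55 (9.09%), against 9.57% of all 491, and in 20.4% of all 3545, against 19.1% of the pooled list. AGTTCA, a half-site of nuclear receptors, was in 1 of 55 (1.82%, 0.046 to 9.72), against 5.50% of all 491, and in 13.8% of the 3545, against 12.7%. These lower shares in the optimal regions were thus shared by the whole optimal list. Median GC content was 43.5% in the 55 windows and 44% in all 491, against 34.5% in all 3545 and 35% in the pooled list. The part of base composition in the counts was not tested.

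Genes of small RNAs lay near some of the far X regions, since the distance rule counts protein-coding genes alone. A tRNA, snRNA, snoRNA, miRNA or rRNA gene was within 500 bp of 161 summits (4.54%), against 2.71% of the pooled list. Genes of tRNAs account for most of these, with 130 regions (3.67%) against 1.27%. X holds 276 of the 612 annotated tRNA genes (45.1%), and 1.50% of its far sequence is within 500 bp of one. Among X regions within 1000 bp of a protein-coding TSS the share was 2.93%, and among far autosomal regions 0.841%. Genes annotated as ncRNA, a class apart from these small RNAs, were within 500 bp of 526 far X summits (14.8%), against 8.92% of the pooled list. That share was 13.6% among X regions near a protein-coding TSS and 7.96% among far autosomal regions. Counting starts of genes of every biotype in the distance rule would leave 2570 of the 3545 regions.

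Regions near a tRNA gene had higher signal than most. Their median was 12.4, against 8.33 over all 3545, and 9 of the 130 (6.92%) were in the optimal list. In the whole pooled list, 20 of the 381 regions within 500 bp of a tRNA gene were in the optimal list. The counts were 4 of 67 for X regions near a TSS and 3 of 105 for far autosomal regions. The count for far X regions is thus no trait of theirs alone, and the difference was not tested. The 9 far X regions were at xol-1 (168), F46G11.4 (41.7), M02F4.2 (41.2), C53C7.3 (34.8), F15G9.5 (33.7), T08A9.13 (33.7), sulp-3 (31.7), W02H3.3 (29.1) and lgc-21 (28.7). The summit was inside the tRNA gene at M02F4.2, F15G9.5, T08A9.13 and lgc-21, and 4 to 55 bp from it at sulp-3, F46G11.4, W02H3.3 and C53C7.3. At xol-1 the tRNA gene was 282 bp away. That region alone among the 9 held the core.

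In the replicates the regions near tRNA genes stood lower than the 13 highest. At F46G11.4 the signal was 8.46 in replicate 1 and 36.5 in replicate 2, at T08A9.13 it was 8.75 and 27.6, and at C53C7.3 it was 15.8 and 19.3. Apart from xol-1 none exceeded 15.8 in replicate 1 or 36.5 in replicate 2. A further optimal region, in an intron of F09A5.3 (53.0 pooled, 18.5 and 31.0 in the replicates), lay 230 bp from mir-54 and 400 bp from mir-55, both of the mir-51 family. Another, at M163.11 (35.3), was 32 bp from the snRNA gene M163.13. Its signal was 2.77 in replicate 1, at rank 14459, and 31.3 in replicate 2, at rank 212.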

How the data were processed

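ChIP-seq of NHR-10 was measured in 2 replicates of L2 larvae. Per the deposited notes, the authors made a region list for each replicate from its alignment and a control, a pooled list from both alignments, and the optimal list by IDR. The sources used here do not give the caller, the aligner or the IDR cutoff. The signal is the authors' deposited value for each region. It was used to rank and describe regions within a list, and, since no source states how lists were scaled to each other, replicates were not averaged. The ce10 lists were not used.

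Starts of all 32512 transcripts of 19973 protein-coding genes came from Ensembl release 115 (WBcel235), and sequence from RefSeq of that build; all 5832 X regions ended inside the reference X. Each summit was put in the first class that applied of coding exon, UTR exon, intron and intergenic. Replicate regions were matched by the nearest summit within 100 bp. Motifs were exact letters on both strands, wholly inside 200 bp centred on the summit. Each 95% interval of a share is the exact Clopper-Pearson one, for counting error alone.

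With 1 group there was no comparison over samples, and no test was run. The members, motifs and lists were chosen with earlier results of these data known. Text names the 20 regions of highest signal, the 5 highest per class, the 3 nearest each side of 1000 bp, the 3 densest 10 kb stretches, the ends of the longest gap and the 5 genes with most regions in introns. Regions of the optimal list outside this rule, those at its edge, the farthest one and those near small RNA genes were chosen after their values were seen. Alternatives covered the distance, start sites, overlap, matching distance, window, merging and each replicate left out. Merging within 2000 bp, leaving out regions under 390 bp and allowing 1 mismatch were added after seeing the data. Each function was tested on simulated data. Python 3.11.15, numpy 2.4.6, pandas 2.3.3, scipy 1.17.1 and matplotlib 3.10.9 were used.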

Additional observations from a re-analysis of the deposited data

How the results depend on the processing

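No paired analysis was possible because the study has 1 group. The number of far X regions was 3545 at 1000 bp and 2127 at 2000 bp, and ran from 2570 to 4501 under the other alternatives. Median signal was 8.28 to 8.37 under all of them except in the optimal list, where it was 41.7. Overlap with the optimal list was 71 by 1 bp, 55 by 50% of the region or by identical ends, and 49 to 86 at other distances. Taking the 491 highest regions of the other replicate instead, with each replicate left out in turn, gave 45 to 50. The intergenic share of 49.5% was 45.4% when genes of every biotype but piRNA counted as genes and 80% in the optimal list. The median gap of 3013 bp was 3477 bp after merging and 271726 bp in the optimal list. The share matched in both replicates, 12.3%, was 6.83% at 50 bp and 19.8% at 200 bp, so it rests on the matching distance. The core share of 0.592% was 0.367% in 100 bp windows, 5.05% with 1 mismatch and 25.5% in the optimal list. The share near a small RNA gene, 4.54%, was 6.43% at 1000 bp. The cause of these shifts was not tested. Depth is unknown, the control was not analysed here, and 2 replicates of 1 strain give no spread between conditions.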
